A study of Mus musculus with 34 samples.

Results

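Tissue macrophages were followed here through 9 genes: Adgre1, Csf1r, Mpeg1, Mrc1, Cd163, Lyve1, Timd4, Folr2 and Vsig4. They were taken as the rows carrying those symbols in the deposited tables, which gave 9 of 15145 genes in adipose tissue and 9 of 13238 in heart. All 9 passed the filter on low counts in both tissues, where 15112 and 13230 genes were tested. Macrophages are phagocytes that live in nearly every organ, where they clear dead cells, take up lipid and iron-carrying proteins and respond to injury. Some seed a tissue early and renew themselves there, and others arrive as blood monocytes and mature. In adipose tissue of obese mice, incoming monocyte-derived macrophages are known to gather around dying adipocytes, while older resident cells lie along vessels.

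The 9 genes cover both kinds of cell. Adgre1 encodes an adhesion receptor used as a general surface marker of mouse macrophages, Csf1r the receptor for the growth factors CSF1 and IL34 on which macrophages depend, and Mpeg1 a pore-forming protein of phagocytes. Mrc1 encodes the mannose receptor and Cd163 the scavenger receptor for haemoglobin bound to haptoglobin. Lyve1 encodes a hyaluronan receptor found on resident macrophages and also on lymphatic endothelium. Timd4 encodes a phosphatidylserine receptor that binds dying cells, Folr2 the folate receptor beta and Vsig4 a complement receptor, and all 3 are known as markers of resident macrophages in mice.

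RNA was sequenced from adipose tissue and heart of C57BL/6J mice aged 20 to 22 months. HFCD+FMD mice ate a high-fat, high-calorie diet (HFCD) with 60% of calories from fat and, every 4 weeks, a fasting mimicking diet (FMD) for 5 days, which from cycle 6 was followed by 2 days on control diet. HFCD mice ate that high-fat diet without FMD, and control mice a diet with 10% of calories from fat. Tissue was collected at the end of 11 cycles, 4 days after the last FMD. Adipose tissue gave 6 HFCD+FMD, 4 HFCD and 3 control libraries, and heart 4 HFCD+FMD, 5 HFCD and 5 control libraries. The adipose depot is not named in the labels, and no label gives the animal behind a library, while the design description mentions 18 mice. The p-values measure the spread between these libraries.

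Totals ran between 15604982 and 47859170 counts per library, and the members between 5 counts (Vsig4, adipose) and 24786 counts (Mpeg1, adipose). CPM are counts scaled by TMM-normalised library size, computed within each tissue except where a scaling shared by both is named. Tissue labels and markers went together on the shared scaling: Adipoq had 1014 to 3142 CPM in adipose libraries and 0.0974 to 12.5 CPM in heart libraries, and Myh6 had 0.0662 to 32.1 CPM in adipose libraries and 14678 to 24609 CPM in heart libraries. Adipose control replicate 1 stood apart, with a mean correlation with the other adipose libraries of 0.913, the lowest there, and the smallest total. Mitochondrially encoded genes took 2.20% to 7.47% of counts in HFCD+FMD, 2.17% to 6.08% in HFCD and 12.6% to 29.3% in control adipose libraries. In heart, HFCD replicate 5 stood apart, with a mean correlation of 0.926 and, on the scaling within heart, 9.31 CPM of the adipocyte gene Adipoq against at most 3.01 CPM in the 13 other libraries, and 1282 CPM of the atrial gene Nppa against at most 314 CPM. Both libraries were kept, and the values that rest on them are given with and without them.

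The first comparison asked how the high-fat diet changed macrophage genes in adipose tissue. Adgre1, Csf1r and Mpeg1, the general macrophage genes, rose in HFCD, and Timd4 fell. The remaining 5 members did not pass the test, although 7 of the 9 had an unadjusted p below 0.05, as did 42.3% of all genes. In all, 3 members rose and 1 fell, beside 30.0% of all genes tested that passed in either direction (15.7% higher, 14.2% lower). A change in bulk tissue can come from the number of macrophages or from the RNA of each cell, and these cannot be told apart here.

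Mpeg1 had 450.0, 689, 489 and 657 CPM in HFCD libraries, against 33.4, 54.3 and 66.8 CPM in control libraries. Every HFCD library was far above every control library. The means were 571 ± 119 and 51.5 ± 16.9 CPM (SD), and the log2 fold change was 3.47 (SE 0.63; adjusted p = 0.00287; edgeR quasi-likelihood test with Benjamini-Hochberg adjustment).

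Adgre1 had 188, 297, 213 and 313 CPM in HFCD libraries, against 8.81, 24.6 and 57.4 CPM in control libraries. The groups did not overlap, although the control libraries alone spanned 6.51-fold. The log2 fold change was 3.05 (SE 0.72, adjusted p = 0.00890).

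Csf1r had 302, 366, 397 and 491 CPM in HFCD libraries, against 32.1, 103 and 215 CPM in control libraries. Again the lowest HFCD library was above the highest control library. Its log2 fold change was smaller, at 1.73 (SE 0.49, adjusted p = 0.0200). Among all genes 39.5% had groups that did not overlap, so the separation of 3 of the 9 members was near the background.

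Timd4 was the member that fell, with 2.38, 1.58, 3.26 and 2.24 CPM in HFCD libraries, against 2.23, 7.42 and 22.2 CPM in control libraries. The HFCD libraries lay close together, and the lowest control library lay among them. The means were 2.37 ± 0.69 CPM in HFCD and 10.6 ± 10.3 CPM in control, and the log2 fold change was -2.18 (SE 0.68, adjusted p = 0.0293). This call rested on single libraries: it was lost without control replicate 5, where the log2 fold change was -1.05 (adjusted p = 0.229), and without HFCD replicate 1, 2 or 4 (adjusted p = 0.0594, 0.0757 and 0.0599).

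**Figure D1:**
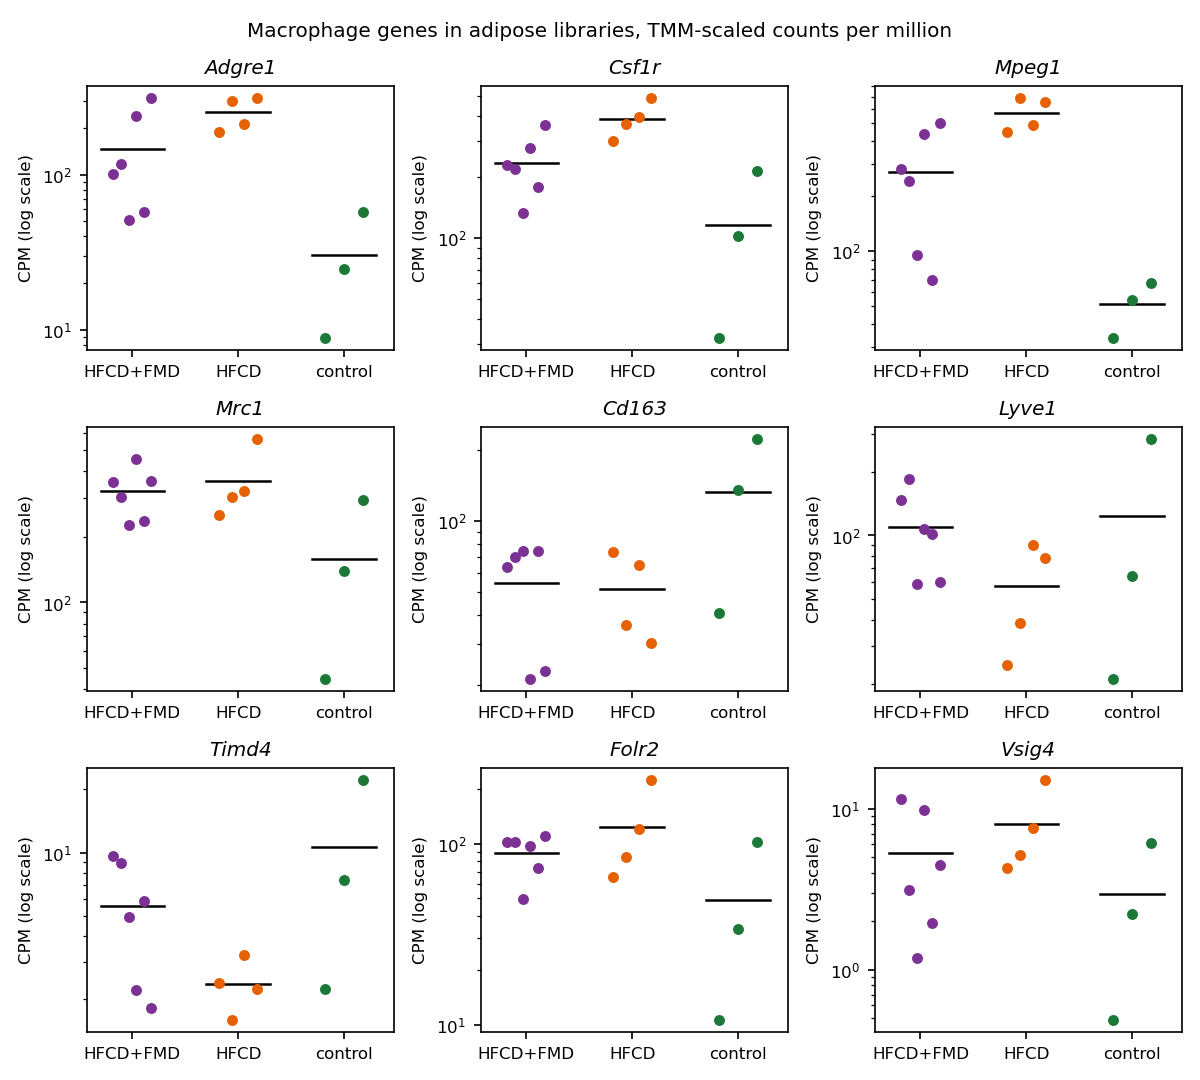
CPM of each member in every adipose library on a log axis, 1 panel a gene, with 6 HFCD+FMD, 4 HFCD and 3 control libraries as points and the group mean as a line. All HFCD points of Adgre1, Csf1r and Mpeg1 lie above all control points, while Timd4 points of HFCD lie between 1.58 and 3.26 CPM.

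The other scavenger receptors and resident genes went in different directions without passing. Cd163 had 73.8, 36.1, 64.8 and 30.25 CPM in HFCD libraries, against 40.6, 136 and 223 CPM in control libraries (log2 fold change -1.38, SE 0.56, adjusted p = 0.0798). Lyve1 had 24.6, 38.7, 89.7 and 77.95 CPM in HFCD libraries, against 20.9, 64.7 and 285 CPM in control libraries (log2 fold change -1.10, SE 0.69, adjusted p = 0.244). In both genes the control libraries spread more widely than the HFCD libraries, and the groups overlapped. Lyve1 turned to 0.42 without control replicate 5, and Cd163 passed without control replicate 1 (-1.80, adjusted p = 0.0387).

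Mrc1, Folr2 and Vsig4 had higher means in HFCD. Mrc1 had 251, 303, 323 and 560.3 CPM in HFCD libraries, against 44.4, 139 and 293 CPM in control libraries (log2 fold change 1.17, SE 0.49, adjusted p = 0.0839). Folr2 had 65.55, 84.65, 121 and 224 CPM in HFCD libraries, against 10.55, 33.7 and 102 CPM in control libraries (1.33, SE 0.60, adjusted p = 0.110). Mrc1 and Folr2 overlapped between the diets, through control replicate 5 in each case, and both passed without that library (1.97, adjusted p = 0.00966, for Mrc1 and 2.46, adjusted p = 0.00842, for Folr2). Vsig4, the lowest of these 3, had 4.27, 5.11, 7.59 and 15.04 CPM in HFCD libraries, against 0.484, 2.22 and 6.11 CPM in control libraries (1.39, SE 0.84, adjusted p = 0.227).

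The control libraries followed 1 order for the whole set. Replicate 1 was the lowest and replicate 5 the highest control library for 9 of 9 members. Without control replicate 1, the log2 fold changes were 2.63 for Adgre1 (adjusted p = 0.0369), 1.29 for Csf1r (adjusted p = 0.0449), 3.24 for Mpeg1 (adjusted p = 0.0192) and -2.64 for Timd4 (adjusted p = 0.0197). Without control replicate 5, the value was 3.90 for Adgre1 (adjusted p = 0.00573), 2.52 for Csf1r (adjusted p = 0.00393) and 3.70 for Mpeg1 (adjusted p = 0.00574). Csf1r also lost its call without control replicate 3 (1.65, adjusted p = 0.0690). The part of the mitochondrial share, which was higher in every control library than in any HFCD library, in these differences was not tested.

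Promoters are printed for a general macrophage gene that rose, Mpeg1, for the resident gene that fell, Timd4, and for Mrc1, which carries the motif of the macrophage factor PU.1. Sequences are the 250 bases before the transcript start, 5′ to 3′ along the gene, from RefSeq on GRCm38.p6, and 6 of the 9 members were matched by symbol. Capitals mark matches, on either strand, to the PU.1 core GAGGAAG and to the MAF core TGCTGA, which do not overlap here. All 3 genes lie on the plus strand, Mpeg1 at chr19:12460520-12460769, Timd4 at chr11:46810549-46810798 and Mrc1 at chr2:14229164-14229413.
Mpeg1: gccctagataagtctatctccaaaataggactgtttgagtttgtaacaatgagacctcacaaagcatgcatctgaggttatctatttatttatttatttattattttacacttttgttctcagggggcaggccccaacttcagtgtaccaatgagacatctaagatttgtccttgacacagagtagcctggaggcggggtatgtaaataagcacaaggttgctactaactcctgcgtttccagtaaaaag
Timd4: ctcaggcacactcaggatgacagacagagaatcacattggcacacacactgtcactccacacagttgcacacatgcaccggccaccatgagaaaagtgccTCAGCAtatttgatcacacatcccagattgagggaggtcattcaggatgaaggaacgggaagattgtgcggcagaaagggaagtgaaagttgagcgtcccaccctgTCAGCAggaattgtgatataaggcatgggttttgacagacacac
Mrc1: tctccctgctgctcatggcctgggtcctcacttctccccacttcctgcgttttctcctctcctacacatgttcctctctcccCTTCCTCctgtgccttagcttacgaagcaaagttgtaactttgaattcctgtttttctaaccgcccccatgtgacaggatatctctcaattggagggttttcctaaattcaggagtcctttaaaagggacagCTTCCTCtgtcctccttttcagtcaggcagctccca
Mpeg1 held neither motif in these letters. Timd4 held the MAF core at 2 places and Mrc1 the PU.1 core at 2 places, in each case on the opposite strand. Of these 6 members, with 7 entries in all, 1 held the PU.1 core and 2 the MAF core in any entry, against 10.6% and 16.1% of 32851 promoter entries of the same length. The chromosome rule was not applied to those 32851 entries. A match is a run of letters and no record of binding.

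Because Adgre1 changed so much, the other members were also set against it inside each library, as reads of a gene per Adgre1 read, a ratio that no scaling between libraries can move. Timd4 gave 0.0127, 0.00533, 0.0153 and 0.00718 reads per Adgre1 read in HFCD libraries, against 0.253, 0.302 and 0.386 in control libraries. The groups lay far apart on this scale, with the geometric mean 33.3-fold lower in HFCD. Since Adgre1 itself rose, most genes fell in this ratio, with a median log2 difference of -3.41 over genes with reads in every library. The control libraries, which spread 9.96-fold in CPM, lay close together.

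Cd163 gave 0.392, 0.121, 0.304 and 0.0968 reads per Adgre1 read in HFCD libraries, against 4.60, 5.52 and 3.88 in control libraries. Every HFCD library lay far below every control library, and the geometric mean was 23.9-fold lower. Lyve1 gave 0.131, 0.130, 0.422 and 0.249 in HFCD libraries, against 2.37, 2.63 and 4.97 in control libraries, again with no overlap. The log2 differences were -5.06 for Timd4, -4.58 for Cd163 and -3.93 for Lyve1, each with an exact two-sided permutation p = 0.0286, the smallest that 4 against 3 libraries allow. That p does not set these genes apart, because 93.6% of all other genes were also lower in HFCD without overlap.

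Mrc1, Folr2 and Csf1r had smaller log2 differences of -1.92, -1.67 and -1.31 at the same exact p = 0.0286. Vsig4 had a difference of -1.4997 with an exact permutation p = 0.0571. Mpeg1 kept pace with Adgre1: it gave 2.39, 2.32, 2.30 and 2.10 reads per Adgre1 read in HFCD libraries, against 3.79, 2.21 and 1.16 in control libraries (log2 difference 0.09, exact permutation p = 0.714). These p-values are unadjusted and belong to 48 such tests over both tissues. A fall against a rising gene is common: 7 of the 8 ratios did not overlap between the diets, as did not 93.9% of all other genes tested (93.6% lower in HFCD), and the median log2 difference over genes with reads in every library was -3.41. Timd4, Cd163 and Lyve1 lay below that median, and the remaining 5 members above it.

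**Figure D2:**
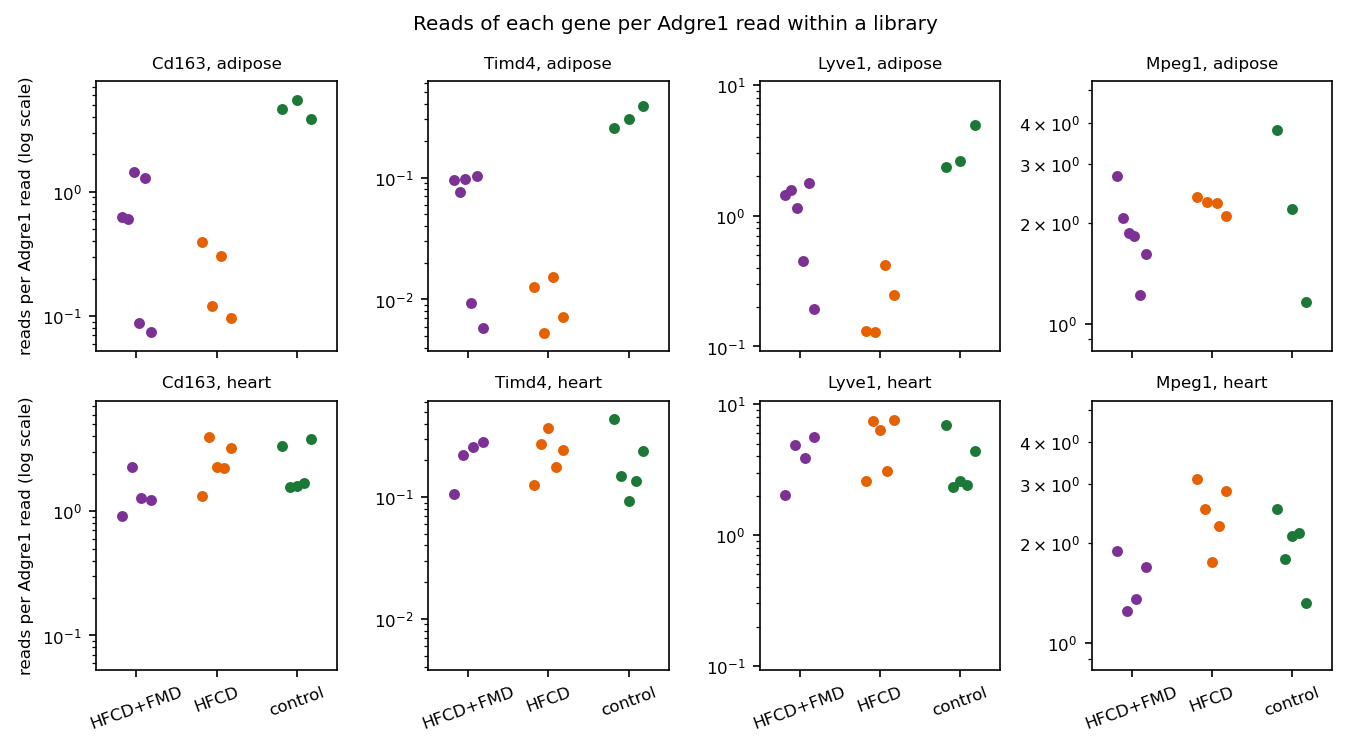
Reads of Cd163, Timd4, Lyve1 and Mpeg1 per Adgre1 read in every library on a log axis, adipose above and heart below, by diet. In adipose tissue the HFCD points of the first 3 genes lie below all control points and HFCD+FMD replicates 4 and 6 are the lowest HFCD+FMD points of those genes, while in heart the diets overlap.

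Most other genes of macrophages and of the receptor's pathway rose too. Of 22 other macrophage genes tested, 19 rose and 0 fell, with a median log2 fold change of 2.07 beside -0.001 over all genes. They included Ctss, a lysosomal protease (3.04, adjusted p = 0.00549), the signalling adaptor Tyrobp (2.62, adjusted p = 0.00565), the inhibitory receptor Sirpa (2.40, adjusted p = 0.00359) and the leukocyte phosphatase Ptprc (1.57, adjusted p = 0.00420). Of 20 genes of lipid-associated macrophages, 14 rose and 0 fell (median 2.06), among them the integrin Itgax (4.54, adjusted p = 0.00154) and the cathepsin Ctsk (3.21, adjusted p = 0.00405).

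Of 21 other resident macrophage genes, 3 rose and 0 fell, with a median of 0.15. That count is near the 15.7% of all genes that rose. The 3 were the scavenger receptor Stab1 (1.69, adjusted p = 0.00549), the chemokine Ccl8 (1.98, adjusted p = 0.0143) and the sialic acid receptor Siglec1 (2.07, adjusted p = 0.0307). Of 25 scavenger and dead-cell uptake receptors, a list that holds Mrc1, Cd163 and Timd4, 14 rose and 1 fell (median 0.97). Clec7a, a receptor for fungal glucan, had the smallest p in that list (3.51, adjusted p = 0.00266), and the single fall was Timd4.

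Around the CSF1 receptor, the ligands were level in their means: Csf1 had 75.4 CPM in HFCD and 84.1 CPM in control (log2 fold change -0.16, adjusted p = 0.721), and Il34 18.4 and 18.6 CPM (-0.02, adjusted p = 0.954). Of 25 genes of the receptor's pathway and of macrophage transcription factors, the ligands and Csf1r included, 17 rose and 0 fell (median 1.26). The transcription factors Irf8 (2.21, adjusted p = 0.000450) and Runx1 (1.52, adjusted p = 0.00190) and the signalling enzymes Pik3cd (1.38, adjusted p = 0.00269) and Fes (1.32, adjusted p = 0.00277) had the smallest p.

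Markers of several other cell types were mostly lower in HFCD. B cell genes were lower in 6 of 6, with 1 fall (median -1.62). Adipocyte genes were lower in 6 of 8, with 3 falls and 1 rise (median -0.49). Large peritoneal macrophages, which carry Timd4 in mice, were represented by 8 genes, of which 1 rose and 5 fell (median -1.10). In all, 3 of the 8 were higher in HFCD, called or not. F5 (-2.48, adjusted p = 0.00509), Alox15 (-4.46, adjusted p = 0.00596), Garnl3 (-0.91, adjusted p = 0.00616) and the cavity macrophage factor Gata6 (-1.28, adjusted p = 0.0156) were among the falls. Mesothelium, the lining of the body cavities, gave 7 falls and 0 rises of 9 genes (median -2.12). Among all genes 14.2% fell and 15.7% rose in this comparison.

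The 8 peritoneal macrophage genes summed to 68.0 to 88.8 CPM in HFCD+FMD, 56.3 to 79.1 CPM in HFCD and 88.7 to 186 CPM in control libraries. The 9 mesothelial genes summed to 34.4 to 263 CPM in HFCD+FMD, 25.01 to 145 CPM in HFCD and 240 to 540.2 CPM in control libraries. No gene of either list had a group mean of 0. Their part in the fall of Timd4 was not tested. For Lyve1, the lymphatic endothelium list of 6 genes, Lyve1 among them, gave 0 rises and 0 falls, and Prox1, its defining factor, averaged 0.599 CPM in HFCD and 0.392 CPM in control.

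HFCD+FMD against HFCD asked what the FMD cycles changed on the same high-fat diet in adipose tissue. No member passed: 0 of 9 were called by edgeR, 1 (Mpeg1) had an unadjusted p below 0.05 beside 11.2% of all genes, and the count stayed 0 with DESeq2 and with voom. Among all genes 0.205% passed, so few calls were made in this comparison altogether. The groups of all 9 members overlapped, and did not overlap for 3.34% of all genes.

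The general genes had lower means in HFCD+FMD and wide ranges. Mpeg1 ranged between 70.0 and 506 CPM in the 6 HFCD+FMD libraries, with a median of 262 CPM, against 450.0 to 689 CPM in HFCD libraries (log2 fold change -1.07, SE 0.46, unadjusted p = 0.0362, adjusted p = 0.412). Adgre1 ranged between 51.1 and 312 CPM with a median of 109.6 CPM, against 188 to 313 CPM in HFCD (-0.79, SE 0.53, adjusted p = 0.604). Csf1r ranged between 133 and 361 CPM with a median of 226 CPM, against 302 to 491 CPM in HFCD (-0.73, SE 0.39, adjusted p = 0.504). In all 3 genes some HFCD+FMD libraries lay below every HFCD library, and others lay within the HFCD range.

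Timd4 and Lyve1 had higher means in HFCD+FMD. Timd4 ranged between 1.81 and 9.65 CPM with a median of 5.42 CPM in HFCD+FMD, against 1.58 to 3.26 CPM in HFCD (1.24, SE 0.59, adjusted p = 0.460). Lyve1 ranged between 58.95 and 184 CPM with a median of 105 CPM in HFCD+FMD, against 24.6 to 89.7 CPM in HFCD (0.93, SE 0.61, adjusted p = 0.592). Neither passed, and neither separated the diets. The 5 other lymphatic endothelium genes summed to 33.99 to 75.7 CPM (median 39.7 CPM) in HFCD+FMD, 31.7 to 35.4 CPM (median 33.5 CPM) in HFCD and 20.4 to 30.5 CPM in control libraries, and their part in the values of Lyve1 was not tested. Cd163 (0.09), Mrc1 (-0.15), Folr2 (-0.48) and Vsig4 (-0.59) had smaller log2 fold changes, with adjusted p between 0.745 and 0.964.

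The 6 HFCD+FMD libraries differed among themselves. Replicates 4 and 6 had 239 and 312 CPM of Adgre1 and 21.2 and 23.0 CPM of Cd163. Replicates 1, 2, 3 and 5 had 101, 118, 51.1 and 57.5 CPM of Adgre1 and 63.5, 70.6, 74.25 and 74.4 CPM of Cd163. Replicates 4 and 6 were within the HFCD range of Adgre1 and below every HFCD library in Cd163, and the other 4 had less Adgre1 than any HFCD library.

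The ratio to Adgre1 showed the same spread. Timd4 gave 0.00929 and 0.00581 reads per Adgre1 read in HFCD+FMD replicates 4 and 6, and 0.0952, 0.0761, 0.0969 and 0.103 in replicates 1, 2, 3 and 5, against 0.00533 to 0.0153 in HFCD libraries. The log2 difference of the geometric means was 2.09 (exact permutation p = 0.100). Lyve1 had a difference of 2.06 (exact permutation p = 0.0286), Mrc1 0.94 (exact permutation p = 0.0524) and Cd163 1.08 (exact permutation p = 0.314), all unadjusted among the 48 tests, where 6 against 4 libraries allow a p of 0.00476. The median over all genes was 1.08, and 0 of the 8 ratios separated the diets, beside 0.88% of all genes.

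**Figure D3:**
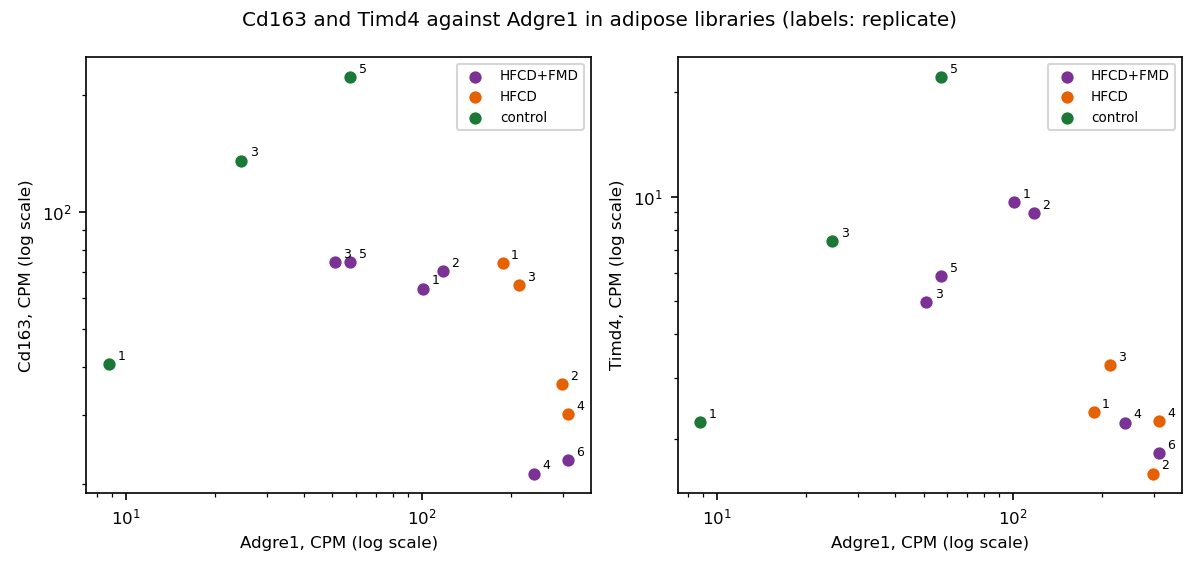
Cd163 (left) and Timd4 (right) against Adgre1 in the 13 adipose libraries, CPM on log axes, with the replicate number beside each point. HFCD+FMD replicates 4 and 6 lie within the HFCD range of Adgre1 and of Timd4 but below all HFCD libraries in Cd163, at 21.2 and 23.0 CPM, and control replicate 1 has the lowest Adgre1, 8.81 CPM.

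HFCD+FMD against control shares its libraries with the comparisons above, so the values stand side by side and are not independent of them. Mpeg1 and Adgre1 rose and no member fell, 2 of 9 beside 19.7% of all genes (10.5% higher, 9.25% lower). At an unadjusted p below 0.05 there were 5 members, beside 36.1% of all genes. Mpeg1 had 70.0 to 506 CPM in HFCD+FMD libraries, against 33.4 to 66.8 CPM in control libraries (log2 fold change 2.40, SE 0.58, adjusted p = 0.0157). Its groups did not overlap, which was so for 1 of 9 members and for 21.0% of all genes. Adgre1 had 51.1 to 312 CPM in HFCD+FMD libraries, against 8.81 to 57.4 CPM in control libraries (log2 fold change 2.26, SE 0.67, adjusted p = 0.0334). Its groups overlapped at the edge.

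Both calls depended on single libraries. Mpeg1 did not pass without control replicate 1 (2.18, adjusted p = 0.0857) or control replicate 3 (2.44, adjusted p = 0.0580). Adgre1 did not pass without control replicate 1 (1.84, adjusted p = 0.130), control replicate 3 (2.13, adjusted p = 0.114), HFCD+FMD replicate 4 (2.06, adjusted p = 0.0546) or HFCD+FMD replicate 6 (1.89, adjusted p = 0.0557). Without control replicate 5, 5 members passed, with Csf1r (1.79, adjusted p = 0.0170), Mrc1 (1.81, adjusted p = 0.0163) and Folr2 (1.99, adjusted p = 0.0223) added, and Adgre1 was at 3.11 (adjusted p = 0.0159). The share of all genes that passed in that fit is not given. The remaining members had log2 fold changes of 1.02 for Mrc1 (adjusted p = 0.127), 0.85 for Folr2, 0.80 for Vsig4, -0.18 for Lyve1, -0.94 for Timd4 and -1.29 for Cd163 (adjusted p = 0.0856). Csf1r averaged 234 ± 79.4 CPM in HFCD+FMD and 117 ± 92.3 CPM in control (adjusted p = 0.131).

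Cd163 was the member whose ratio to Adgre1 stayed furthest from control, with 0.0737 to 1.45 reads per Adgre1 read in HFCD+FMD libraries, against 3.88 to 5.52 in control libraries (log2 difference -3.50, exact permutation p = 0.0357, unadjusted, smallest possible 0.0119). Csf1r, Mrc1, Timd4 and Lyve1 also did not overlap in this ratio, which makes 5 of 8 beside 25.1% of all genes. The median log2 difference over all genes was -2.34: Cd163 and Timd4 (-2.96) lay below it, and Csf1r (-1.02), Mrc1 (-0.98) and Lyve1 (-1.87) above it. The other macrophage list gave 13 rises and 0 falls of 22 (median 1.61), the other resident list 1 rise, Stab1, and 0 falls of 21 (median 0.29), and the pathway list 13 rises and 0 falls of 25. The peritoneal macrophage list gave 2 rises and 3 falls of 8, and mesothelium 0 of 9 in either direction.

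**Figure D4:**
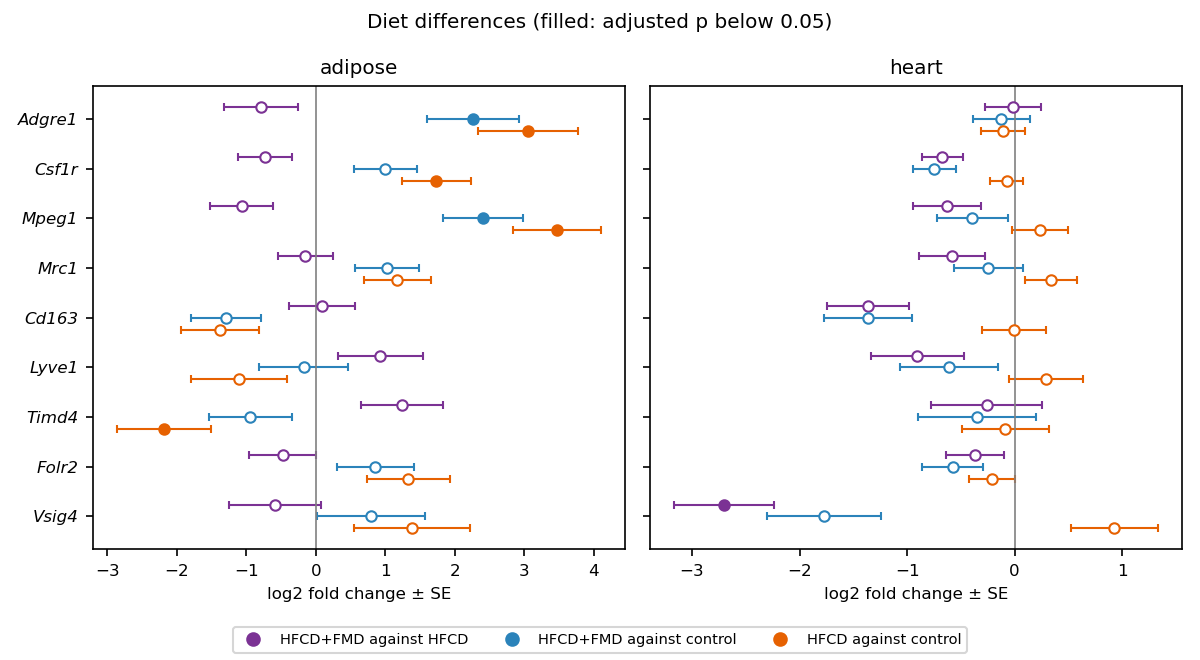
Log2 fold change of each member with its SE (edgeR), adipose left and heart right, for HFCD+FMD against HFCD, HFCD+FMD against control and HFCD against control, with filled points where the adjusted p was below 0.05. In adipose tissue Adgre1 and Mpeg1 are filled on the right of 0 in both comparisons with control, and in heart Vsig4 at -2.70 is the single filled point.

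Set against transcript length, some members kept their rank across diets in adipose tissue and others did not. Folr2 had rank 2 in every diet, and Cd163, Vsig4 and Timd4 had the same ranks in HFCD+FMD as in HFCD. On CPM per kilobase of exon, Mpeg1 was the highest member in HFCD+FMD adipose tissue (62.9 ± 40.7) and in HFCD (132 ± 27.5), and Lyve1 in control (42.4 ± 48.6). The top 6 in HFCD+FMD, from Mpeg1 through Folr2, Mrc1, Adgre1 and Csf1r to Lyve1 (37.6 ± 16.8), differed between neighbours by less than the larger SD. In HFCD, Mpeg1 stood over Folr2 (80.1 ± 45.8) and Mrc1 (56.4 ± 21.6) over Lyve1 (19.8 ± 10.6) by more than 1 SD, and Timd4 was last (1.09 ± 0.32). In control, no pair of neighbours differed by more than the larger SD, down to Timd4 (4.88 ± 4.76) and Vsig4 (1.98 ± 1.94).

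Correlations between members were taken across the 13 adipose libraries, which share diets and depth, so that the coefficients are descriptions. Adgre1 correlated with Csf1r at r = 0.959, with Mpeg1 at 0.958 and with Mrc1 at 0.882 in log2 CPM, and at 0.904, 0.877 and 0.824 after the diet means were taken out. Cd163 correlated with Timd4 at 0.837 (0.892 within diets) and with Adgre1 at -0.485 (-0.17 within diets). Outside the set, the genes most like Adgre1 were Iqgap1 (0.996), Tyrobp (0.995) and Tbxas1 (0.993), those most like Mrc1 were Pf4 (0.980), Gatm (0.979) and C1qa (0.972), and those most like Cd163 were Cd209e (0.914), Cd209a (0.913) and Gspt2 (0.895). For Timd4 they were Pcdhga1 (0.938), Twsg1 (0.924) and Eogt (0.918), and for Lyve1 Ms4a8a (0.968), Iars (0.930) and Cd248 (0.928). For Vsig4 they were Wdr44 (0.964), Stk4 (0.959) and Ap1s3 (0.948).

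In heart, Lyve1 was the highest member per kilobase in every diet (11.3 ± 4.62 in HFCD+FMD, 12.0 ± 7.03 in HFCD and 8.80 ± 3.40 CPM per kilobase in control) and Timd4 the lowest (0.799 ± 0.311, 0.700 ± 0.350 and 0.642 ± 0.277). Adgre1 had 8.12 ± 1.23 CPM in HFCD+FMD, 6.31 ± 1.496 CPM in HFCD and 7.46 ± 2.14 CPM in control hearts.

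The deposited heart values had lost a shared term per gene within 3 sets of libraries, and the heart model held these sets as a factor. HFCD+FMD replicates 2, 3 and 5 form a set with HFCD replicate 5, HFCD+FMD replicate 1 forms one with control replicates 4 and 6, and the other 7 libraries form the third. HFCD+FMD is thus tied to the other diets only through HFCD replicate 5 and HFCD+FMD replicate 1. A fit that holds the sets and leaves out either of them rests on the other alone for HFCD+FMD. What the sets stand for is not stated in the labels.

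HFCD against control gave no change of a member in heart: 0 of 9 passed with edgeR, DESeq2 or voom, beside 0.0% of all genes, and 1 member, Vsig4, had an unadjusted p below 0.05 beside 12.8% of all genes. The log2 fold changes ran between -0.21 (Folr2) and 0.93 (Vsig4, adjusted p = 0.385), and all groups overlapped, which was not so for 7.19% of all genes. Adgre1 had 5.49, 4.64, 6.90, 5.98 and 8.55 CPM in HFCD hearts, against 4.26, 6.28, 8.86, 8.65 and 9.25 CPM in control hearts (-0.11, SE 0.20, adjusted p = 0.803). Mpeg1 had 17.04, 11.7, 12.1, 13.4 and 24.45 CPM in HFCD hearts, against 10.7, 11.2, 18.5, 18.5 and 12.2 CPM in control hearts (0.24, SE 0.26, adjusted p = 0.654). Neither gene separated the diets. HFCD replicate 5 was the highest HFCD heart for 8 of 9 members. The ratios to Adgre1 overlapped for all 8 members, with exact permutation p between 0.0714 and 0.897, and 1.84% of all genes had ratios that did not overlap. Mitochondrially encoded genes took 36.4% to 71.45% of counts in HFCD hearts and 21.8% to 32.6% in control hearts; with that share as a covariate 0 members passed.

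In hearts of HFCD+FMD against HFCD mice, Vsig4 fell and no other member passed, 1 of 9 beside 0.106% of all genes. At an unadjusted p below 0.05 there were 3 members, beside 11.0% of all genes, and no member's groups separated, beside 4.65% of all genes. Vsig4 had 0.682, 2.12, 1.28 and 1.44 CPM in HFCD+FMD hearts, against 0.974, 1.68, 3.33, 1.11 and 14.1 CPM in HFCD hearts. HFCD replicate 5, at 14.1 CPM, stood far above every other heart, and without it the groups covered much the same range. The log2 fold change was -2.70 (SE 0.46, adjusted p = 0.0454), but -1.71 (adjusted p = 0.960) without HFCD replicate 5, -1.59 (adjusted p = 0.507) without the set factor and -0.25 (adjusted p = 0.921) without both. It also failed with control replicate 3, 5 or 6, HFCD replicate 2 or 4, or HFCD+FMD replicate 2, 3 or 5 left out, at adjusted p between 0.0560 and 0.189.

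Csf1r and Cd163 had the next smallest p there. Csf1r had 20.95, 22.1, 17.9 and 21.8 CPM in HFCD+FMD hearts, against 22.5, 22.65, 18.8, 23.7 and 39.2 CPM in HFCD hearts (-0.67, SE 0.19, adjusted p = 0.156). Cd163 had 8.33, 15.01, 9.79 and 11.2 CPM in HFCD+FMD hearts, against 7.33, 18.2, 15.7, 13.25 and 27.3 CPM in HFCD hearts (-1.36, SE 0.38, adjusted p = 0.156). In both genes HFCD replicate 5 was again the highest and the groups overlapped. Without HFCD+FMD replicate 1, Csf1r stood at -0.93, but the HFCD+FMD hearts were then set against HFCD replicate 5 alone within their set. Without HFCD replicate 5 it stood at -0.26, with HFCD+FMD tied to the other diets only through HFCD+FMD replicate 1. Per Adgre1 read, Csf1r and Mpeg1 had log2 differences of -0.63 and -0.68 (exact permutation p = 0.0317 and 0.0238, unadjusted, smallest possible 0.00794), with overlapping groups, beside 6.09% of all genes whose groups did not overlap and a median over all genes of -0.39. The permutations did not hold the library sets, so set and diet cannot be told apart in these p-values.

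Genes of other lists that fell in this comparison were high in the same heart. Hmox1, which degrades haem and stands in the scavenger list (-2.88, adjusted p = 0.0392), had 103 CPM in HFCD replicate 5 and at most 11.1 CPM in the 13 other hearts. Hp, which encodes haptoglobin (-7.56, adjusted p = 0.0113), had 28.2 CPM there and at most 2.10 CPM elsewhere. The adipocyte gene Cidec (-6.92, adjusted p = 0.0392) had 8.15 CPM there and at most 3.59 CPM elsewhere. The part of these genes' sources in the values of Vsig4 was not tested.

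**Figure D5:**
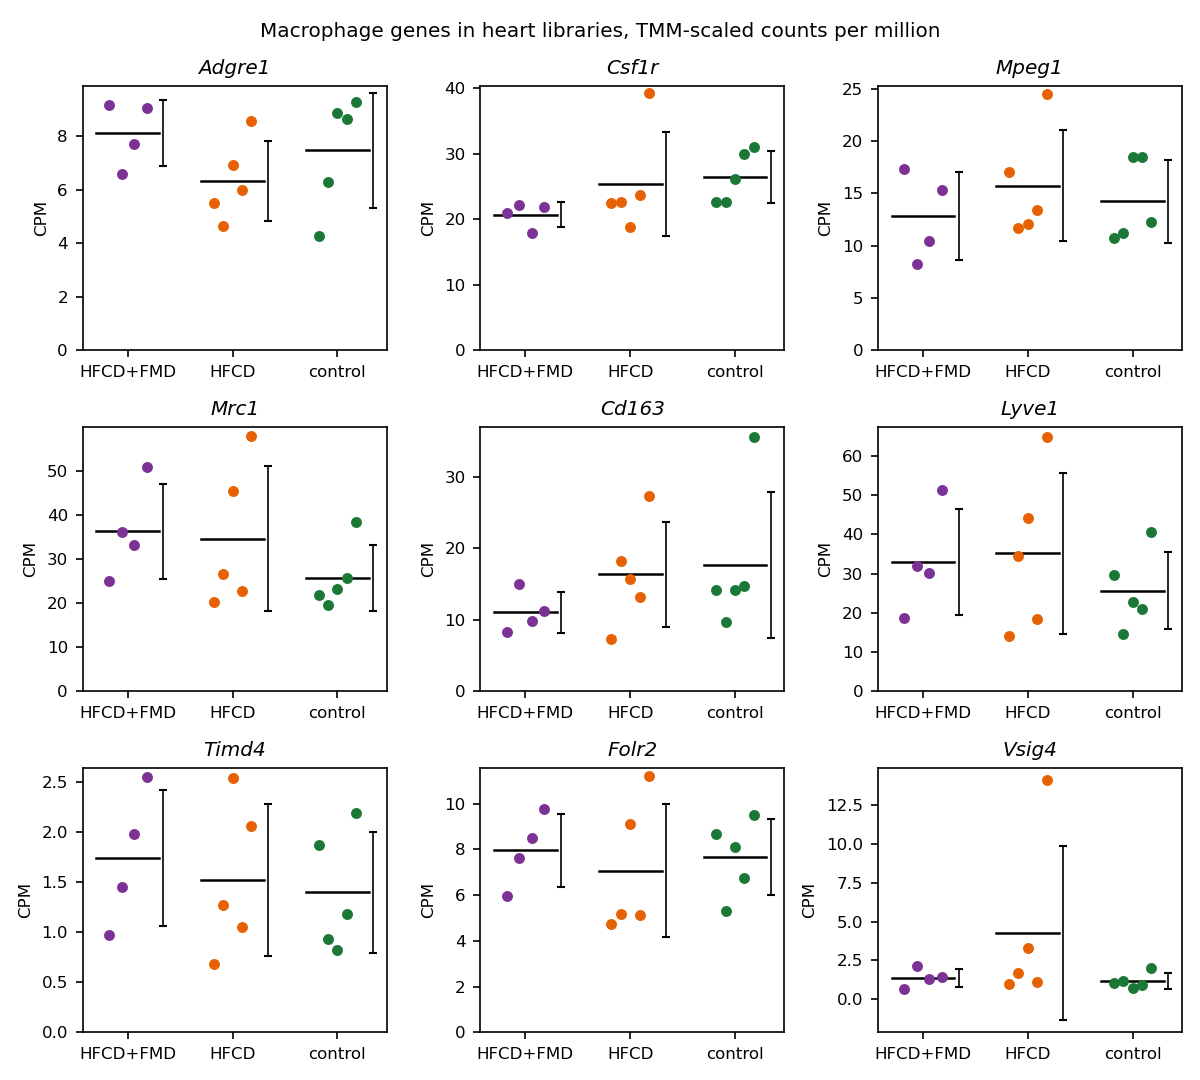
CPM of each member in every heart library, 1 panel a gene, with 4 HFCD+FMD, 5 HFCD and 5 control libraries as points, the group mean as a line and the SD as a bar beside it. HFCD replicate 5 is the single high point of Vsig4, at 14.1 CPM, and of Csf1r, at 39.2 CPM.

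HFCD+FMD against control in heart, which shares libraries with the 2 comparisons above, gave 0 of 9 members by edgeR, beside 0.0227% of all genes. At an unadjusted p below 0.05 there were 3 members, beside 9.48% of all genes, and DESeq2 called 1, Csf1r (-0.75, adjusted p = 0.0425). Csf1r had 20.95, 22.1, 17.9 and 21.8 CPM in HFCD+FMD hearts, against 22.6, 22.6, 26.2, 30.0 and 31.0 CPM in control hearts (-0.75, SE 0.20, adjusted p = 0.209 by edgeR). Each HFCD+FMD heart was below each control heart. Among all genes, 9.02% had groups that did not overlap, in either direction. Without HFCD replicate 5 the value was -0.46, and it did not pass. Cd163 (-1.37, adjusted p = 0.282) and Vsig4 (-1.77, adjusted p = 0.282) had the other small p-values. The model gave a log2 fold change below 0 to 9 of 9 members, but the sets weigh in these values: without the set factor 6 of the 9 turned to above 0, among them Vsig4 (0.27), which averaged 1.38 ± 0.59 CPM in HFCD+FMD hearts and 1.17 ± 0.501 CPM in control hearts. Per Adgre1 read, Csf1r had a log2 difference of -0.51 from control (exact permutation p = 0.0476, library sets not held) beside a median over all genes of -0.16, and none of the 8 ratios separated the diets, beside 1.72% of all genes.

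The difference between tissues was tested in 1 fit of all 27 libraries, as the change in heart minus that in adipose tissue. Animals that gave both tissues could not be matched, so the tissues were treated as independent. For HFCD against control, 4 of 9 members differed, beside 22.0% of all genes. The difference was -3.30 for Adgre1 (SE 0.69, adjusted p = 0.00202), -3.33 for Mpeg1 (SE 0.62, adjusted p = 0.000954), -1.80 for Csf1r (SE 0.49, adjusted p = 0.0118) and 2.26 for Timd4 (SE 0.78, adjusted p = 0.0400). Timd4 lost this call in 9 of the 27 fits that left out 1 library, and stood at 1.14 (adjusted p = 0.271) without adipose control replicate 5.

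For HFCD+FMD against control, Adgre1 (-2.13, SE 0.67, adjusted p = 0.0316) and Mpeg1 (-2.55, SE 0.61, adjusted p = 0.00854) differed between the tissues, 2 of 9 beside 17.1% of all genes. Adgre1 lost this call without adipose control replicate 1 (-1.70, adjusted p = 0.0950) or 3 (-2.01, adjusted p = 0.0839), adipose HFCD+FMD replicate 4 (-1.93, adjusted p = 0.0515) or 6 (-1.76, adjusted p = 0.0574), and heart HFCD+FMD replicate 3 (-2.11, adjusted p = 0.0619) or 5 (-2.19, adjusted p = 0.0540). For HFCD+FMD against HFCD no member differed, beside 0.0159% of all genes. The smallest p there was that of Adgre1 (1.17, SE 0.62, unadjusted p = 0.0685).

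On the common scale of that fit, the mean CPM per kilobase in control mice was higher in adipose tissue than in heart for 9 of 9 members, between 1.35-fold for Vsig4 and 4.08-fold for Timd4. This rested on adipose control replicate 5: without it 7 were higher, Timd4 was at 1.85-fold, and Lyve1 (0.892-fold) and Vsig4 (0.620-fold) were lower. In HFCD mice it was 21.8-fold higher in adipose tissue for Adgre1 and 19.8-fold for Mpeg1. It was 0.897-fold for Lyve1 and 0.847-fold for Timd4, but Lyve1 was at 1.13-fold without heart HFCD replicate 5 and 1.07-fold without adipose HFCD replicate 1, and Timd4 at 1.02-fold without heart HFCD replicate 3. Leaving out libraries here was chosen after seeing the data. These ratios are descriptions and depend on the scaling between 2 unlike tissues.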

How the data were processed

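The 9 genes and the gene lists beside them were chosen with earlier results of these data known. The authors deposited, for each tissue, a table of read counts per gene and a table of log2 counts per library size; in the heart log2 table a term shared by sets of libraries had been removed, as a comparison with the counts showed. Reads were aligned with STAR 2.5.3 to mm10 and handled in R 3.5.3 with edgeR and limma, per the submitters' processing notes; the read counter and annotation are not given in the sources used here. Of 34 labelled libraries, 27 had columns and 7 were not analysed here; 0 columns belonged to other samples. Replicates were numbered in accession order, which only names them.

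Counts were tested per tissue with edgeR 4.0.16 (R 4.3.3): TMM scaling, filterByExpr, all diets in 1 quasi-likelihood fit, Benjamini-Hochberg false discovery rate 0.05 over 15112 genes (adipose) and 13230 genes (heart). Each SE was computed as the absolute log2 fold change divided by the square root of the F statistic. A prior count of 2 entered only the log2 CPM used for correlations and for a planned fit that was not used. The heart model held 3 library sets as a factor, read from the difference between the deposited log2 values and those computed from the counts. The fit of all libraries that compares tissues held no set factor. Alternatives used DESeq2 1.42.0, limma 3.58.1 (voom, with and without library quality weights, and the deposited log2 values), other scalings and filters, age, and each library left out. Another left out the mitochondrially encoded genes, in both tissues. Totals of 15604982 to 47859170 counts set the precision, and low genes such as Timd4 and Vsig4 are the least precise.

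A planned limma fit of values relative to Adgre1 was not used: Adgre1's own error enters every gene alike, and the fit gave 1 pooled error. Ratios of counts were compared instead by exact two-sided permutation over libraries, 48 tests in all, a choice made after the data were seen. These permutations held no library set, in heart too. Values per kilobase used the exon lengths of GENCODE M21. All 9 members were named whatever their result, and from each other list up to 4 genes with the smallest p. Tested on simulated data for HFCD against control, the fit recovered 89% of 100 adipose genes changed by 2 on the log2 scale and 98% at 3, with 5 false calls among 15104 genes, and 93% and 97% in heart, with 13 false calls among 13223 genes. Those totals include the changed genes. The simulated counts held no library set effect and the lowest genes were left unchanged, so neither the heart sets nor such genes were covered.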

Additional observations from a re-analysis of the deposited data

Results flagged for a closer look

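Among 45 groups of 4 to 6 libraries, 3 held a library far from the others of its group, where chance gives about 1 in 20. Heart HFCD replicate 5 stood apart for Csf1r, at 39.2 CPM, and for Vsig4, at 14.1 CPM. Heart control replicate 6 stood apart for Cd163, at 35.6 CPM, with the other 4 control hearts between 9.77 and 14.7 CPM.

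The change with diet differed between the tissues in 6 cases, as the heart change minus the adipose change on the log2 scale (edgeR, adjusted p below the threshold). For HFCD against control the differences were -3.30 for Adgre1, -1.80 for Csf1r, -3.33 for Mpeg1 and 2.26 for Timd4. For HFCD+FMD against control they were -2.13 for Adgre1 and -2.55 for Mpeg1. Each of these genes was called in that comparison in adipose tissue and not in heart.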

How the results depend on the processing

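No paired analysis was possible because the labels give no replicate numbers shared across diets. The members called in adipose tissue were 4 in HFCD against control, and 7 with DESeq2; 2 in HFCD+FMD against control, 4 with voom quality weights and 1 with only the diets compared. In heart the count was 1 for HFCD+FMD against HFCD, 2 with DESeq2 or only the diets compared, and 0 with 1 CPM in 5 libraries, age, the deposited log2 values, the mitochondrial share, no set factor, or no set factor and no HFCD replicate 5; for HFCD+FMD against control it was 0, and 1 with DESeq2 or quality weights. The main fits called 30.0%, 19.7%, 0.106% and 0.0227% of all genes in these comparisons, in the order given. Shares under the other settings, and with 1 library left out, are not given. The counts of members there describe the settings and show nothing particular to the members. The mitochondrial share and the fit without sets and HFCD replicate 5 were chosen after seeing the data. The following log2 values, none of them called, changed sign; the cause was not tested. In adipose tissue, Cd163 in HFCD+FMD against HFCD was -0.00115 with voom, and Lyve1 in HFCD+FMD against control 0.39 with voom, 0.71 with quality weights and 0.47 with the deposited log2 values. In heart HFCD against control, the mitochondrial share gave Csf1r 0.043, Mrc1 -0.077 and Lyve1 -0.24, quality weights Mpeg1 -0.028, only the diets compared Mpeg1 -4.0e-05 and Cd163 0.063, no set factor Timd4 0.10, and neither sets nor HFCD replicate 5 Mpeg1 -0.076. In heart HFCD+FMD against HFCD, Adgre1 was 0.16 with quality weights; no set factor gave Adgre1 0.36, Mrc1 0.074, Timd4 0.22 and Folr2 0.18, the mitochondrial share Adgre1 0.068 and Timd4 0.16, and neither sets nor HFCD replicate 5 Adgre1 0.51, Mrc1 0.36, Lyve1 0.27, Timd4 0.41 and Folr2 0.43. In heart HFCD+FMD against control, only the diets compared gave Adgre1 0.0063 and Mpeg1 0.16, no set factor Adgre1 0.12, Mrc1 0.50, Lyve1 0.37, Timd4 0.32, Folr2 0.060 and Vsig4 0.27, and neither sets nor HFCD replicate 5 Adgre1 0.12, Mrc1 0.50, Lyve1 0.36, Timd4 0.32, Folr2 0.058 and Vsig4 0.28. With each library left out in turn, the members called ranged between 3 and 5 (adipose HFCD against control), 0 and 5 (adipose HFCD+FMD against control) and 0 and 2 (heart HFCD+FMD against HFCD), and 1 and 4 for the tissue difference in HFCD+FMD against control. Ranges that crossed 0 were, in adipose tissue, -1.60 to 0.42 for Lyve1 in HFCD against control, -0.29 to 0.14 for Mrc1 and -0.095 to 0.32 for Cd163 in HFCD+FMD against HFCD, and -0.67 to 1.35 for Lyve1 and -1.41 to 0.18 for Timd4 in HFCD+FMD against control. In heart HFCD against control they were -0.27 to 0.12 for Adgre1, -0.20 to 0.067 for Csf1r, -5.37e-05 to 0.52 for Mpeg1, -0.19 to 0.16 for Cd163 and -0.43 to 0.14 for Timd4. In heart HFCD+FMD against HFCD they were -0.14 to 0.18 for Adgre1, -1.11 to 0.16 for Mpeg1 and -0.63 to 0.027 for Timd4, and against control -0.30 to 0.0065, -1.10 to 0.16 and -0.64 to 0.077 for the same genes. Depth limits Timd4 and Vsig4 most, with 18 to 83 and 14 to 424 counts per heart library, and 3 adipose control libraries limit every comparison with control.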

Other observations

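Dividing-cell genes, a list that marks no single cell type, rose in adipose tissue with the high-fat diet. In HFCD against control 8 of 8 rose (median log2 fold change 2.35), beside 15.7% of all genes. In HFCD+FMD against control 8 of 8 rose (2.57), beside 10.5% of all genes. Between HFCD+FMD and HFCD 0 of 8 passed, beside 0.205% of all genes. Which cells these rises came from, macrophages included, cannot be told in bulk tissue. Beside 14.2% of all genes lower and 15.7% higher in HFCD against control, 1 of 6 B cell genes fell (median -1.62) and 3 of 10 monocyte genes rose with 0 falls (median 0.52).

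In heart, the genes most like Csf1r across the 14 libraries were Hp (r = 0.908), Cyp1b1 (0.908) and Nsun2 (0.901), and the gene most like Mpeg1 was the macrophage protease gene Ctss (0.833). Those most like Adgre1 were Sec22b (0.847), Gtf2a1 (0.845) and Zfp281 (0.835). Adgre1 and Csf1r correlated at 0.333 in heart, against 0.959 across the 13 adipose libraries. After the diet means were taken out, these were 0.581 and 0.904. The libraries share diets, sets and depth, and the heart coefficients include HFCD replicate 5.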
